A study of Mus musculus with 6 samples.

Results

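The genes described here are 42 genes of the lysosome: 14 peptidases, 15 other hydrolases, 5 activator, lipid transfer and granulin proteins, 7 membrane proteins and the transcription factor gene Tfeb. They were chosen by name from the 26286 genes of the deposited count tables, with earlier results of these data known. All 42 were present, 31 with counts in both library protocols and 11 with counts in the poly(A) libraries only.

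The study sorted regulatory T cells (Treg), the CD4+ T cells that restrain immune responses, from C57BL/6 mice with a Blimp1/GFP reporter. Blimp-1 is a transcriptional repressor of effector lymphocytes, and its reporter splits CD4+ CD25high cells into a GFP+ and a GFP- population. The sample titles carry the prefix BlimpHet in both populations, and both came from spleens and lymph nodes that were pooled. Each population had 3 libraries: GFP- replicate 20 and GFP+ replicate 19 were made by poly(A) selection, and GFP- replicates 2 and 5 and GFP+ replicates 1 and 4 by a protocol that the labels name single-cell, applied to sorted populations. The design text calls the 3 samples of a population independent, without saying how animals were divided among them, so each p-value refers to the spread among these samples, which may be partly technical. Libraries are named below by population and number, as in GFP- 20.

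Libraries held between 15224051 and 28354321 counts. Levels are given as CPM, counts relative to library size, scaled by edgeR's TMM normalisation, in the order GFP- 20, 2 and 5 and GFP+ 19, 1 and 4. Since the protocols weight genes differently, CPM were compared only within a protocol, and protocol was a covariate of the fit. Foxp3, the defining Treg factor, had 1097 to 2624 CPM in the 6 libraries. The 12 tested T cell markers had a median log2 fold change of 0.08, and Ctla4 was called higher in GFP+ Treg. Of 27 macrophage markers 21 could be tested, and all 21 were called higher in GFP+ Treg, beside 9.81% of all tested genes. The median log2 fold change of the 21 was 4.90. Of these, 8 passed the filter on low counts only with the GFP+ libraries, which are the libraries where they were high, and 13 would have passed on the GFP- libraries alone. Summed over the 24 with counts in both protocols, they ranged from 89.6 to 118 CPM in GFP- and from 1368 to 2652 CPM in GFP+ Treg, where none was at 0. Csf1r and C1qa were above 0 in every library. Vsig4 was at 0 in the 3 GFP- libraries, Itgam in 2 of them and Cd14, Siglec1 and Cebpb in 1. Cebpb, which was not tested, was lower in GFP+ 1 (0.0818 CPM) than in GFP- 5 (0.127 CPM).

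Lysosomes are acidic organelles in which hydrolases break down proteins, glycans and lipids that arrive by endocytosis, phagocytosis or autophagy. Most of the enzymes carry a mannose 6-phosphate tag that sorts them to the organelle, and a proton pump keeps the lumen acidic. Every cell has lysosomes, macrophages have many of them, and lymphocytes use related compartments as secretory granules. The factor TFEB switches on many of these genes through E-box motifs near their start sites.

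Of the 31 tested genes, 10 were called higher in GFP+ Treg and 0 lower. Among all 10523 genes tested, 9.81% were called higher and 3.68% lower (quasi-likelihood test of edgeR, Benjamini-Hochberg adjusted p under 0.05). Of the 31, 29 would have passed the filter on low counts with the GFP- libraries alone, while Cd68 and Cd63 needed the GFP+ libraries, so that the call of Cd68 is given as a description. The 10 were Cd68, Lgmn, Grn, Ctsb, Gm2a, Ctsa, Ctsc, Ctsz, Lamp2 and Psap. At an unadjusted p under 0.05, 15 of the 31 were higher and 0 lower, beside 15.3% and 11.5% of all tested genes. DESeq2, limma-voom and limma on the authors' log2 RPKM each called 10 higher and 0 lower. Among all tested genes they called 11.4%, 10.2% and 8.76% higher. The median log2 fold change (GFP+ minus GFP-) of the 31 was 0.66, beside -0.08 over all tested genes. In 16 of the 31, every GFP+ library lay above every GFP- library of its own protocol, an order seen in 21.3% of all tested genes. The reverse order occurred in 0 of the 31 and in 19.3% of all tested genes. Because the members were chosen with earlier results of these data known, these comparisons with all genes describe the list and do not test it. In bulk RNA, more cells of a type and more RNA per cell cannot be told apart, and the part of the macrophage markers in these differences was not tested.

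**Figure D1:**
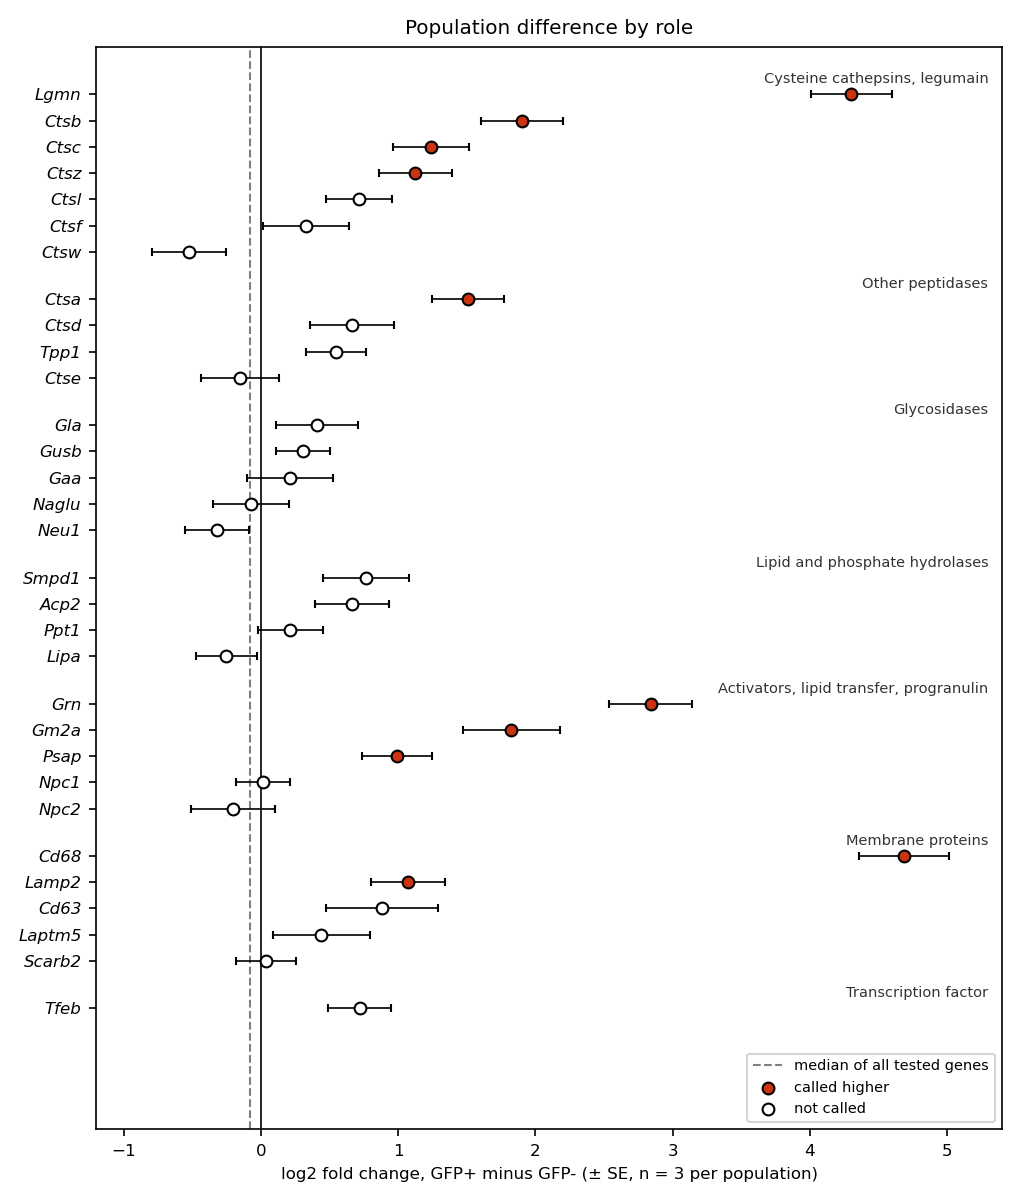
Log2 fold change of the 31 tested lysosomal genes between GFP+ and GFP- Treg, grouped by role (points: edgeR estimates; bars: ± SE, n = 3 per population; dashed line: median of all tested genes). Filled points are the 10 genes called higher, led by Cd68 at 4.68 and Lgmn at 4.30, while the 5 tested glycosidases lie between -0.32 and 0.41.

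The calls rested unequally on single libraries. Cd68, Lgmn, Grn, Ctsb, Gm2a and Ctsa stayed called with any 1 library left out. The number of members called fell from 10 to 6 without GFP- 20, without GFP+ 19 and without GFP+ 4, where the share of all tested genes called higher fell from 9.81% to 5.55%, 5.34% and 7.63%. It was 7 without GFP+ 1 (6.49% of all genes), 10 without GFP- 2 (8.80%) and 13 without GFP- 5 (11.6%). Each poly(A) library is the only one of its population in that protocol, so leaving out either leaves the comparison to the single-cell protocol.

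Among the cysteine cathepsins and legumain, 4 of 7 tested genes (57.1%, beside 9.81% of all tested genes) rose: Lgmn, Ctsb, Ctsc and Ctsz. Legumain (Lgmn, Entrez 19141) is an asparaginyl endopeptidase that matures cathepsins and processes antigens. Lgmn stood at 10.6, 7.17 and 9.75 CPM in GFP- and at 150.4, 186 and 211 CPM in GFP+ Treg. Within each protocol the GFP+ libraries were thus far above the GFP- libraries. The log2 fold change was 4.30 ± 0.29 (SE, 3 against 3 libraries, edgeR adjusted p = 7.31e-05), and by RPKM, counts scaled to gene length and library total, Lgmn moved from rank 31 to rank 8 of the 42 genes in the poly(A) pair.

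Cathepsin B (Ctsb, Entrez 13030) is an endo- and exopeptidase of broad specificity. Its levels were 262, 93.2 and 135 CPM in GFP- and 741, 556 and 426 CPM in GFP+ Treg. The populations did not overlap within either protocol, and the log2 fold change was 1.91 ± 0.30 (SE, 3 against 3 libraries, edgeR adjusted p = 0.00334).

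Cathepsin C (Ctsc, Entrez 13032) is the dipeptidyl peptidase that activates granzymes and other granule serine proteases. Ctsc was at 34.5, 64.6 and 102 CPM in GFP- and at 67.1, 179 and 255 CPM in GFP+ Treg. GFP+ libraries were higher within each protocol. The log2 fold change was 1.24 ± 0.28 (SE, 3 against 3 libraries, edgeR adjusted p = 0.0196). Without GFP- 20, GFP+ 19, GFP+ 1 or GFP+ 4 the adjusted p of Ctsc was 0.0871, 0.0873, 0.0525 and 0.0774, so the call was lost in each case.

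Cathepsin Z (Ctsz, Entrez 64138) is a carboxypeptidase. Ctsz had 80.7, 142 and 211 CPM in GFP- and 152, 377 and 452 CPM in GFP+ Treg, again higher within each protocol. Its log2 fold change was 1.12 ± 0.27 (SE, 3 against 3 libraries, edgeR adjusted p = 0.0244). The adjusted p rose to 0.161 without GFP- 20, 0.160 without GFP+ 19, 0.0698 without GFP+ 1 and 0.105 without GFP+ 4.

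The other 3 tested genes of this class did not pass. Cathepsin L (Ctsl), an endopeptidase of the endosome, had a log2 fold change of 0.72 ± 0.24, and its adjusted p of 0.0911 became 0.0278 without GFP- 5 (edgeR). Cathepsin F (Ctsf) was low throughout, between 1.52 and 3.68 CPM, with a log2 fold change of 0.33 ± 0.31. Cathepsin W (Ctsw), a cathepsin of cytotoxic lymphocytes, had the lowest value of the 31, -0.52 ± 0.27 (SE, 3 against 3 libraries). The adjusted p of Ctsw was 0.256 (edgeR), and 57.5, 181 and 293 CPM in GFP- stood beside 39.9, 143 and 187 CPM in GFP+ Treg, with GFP+ 4 just above GFP- 2.

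**Figure D2:**
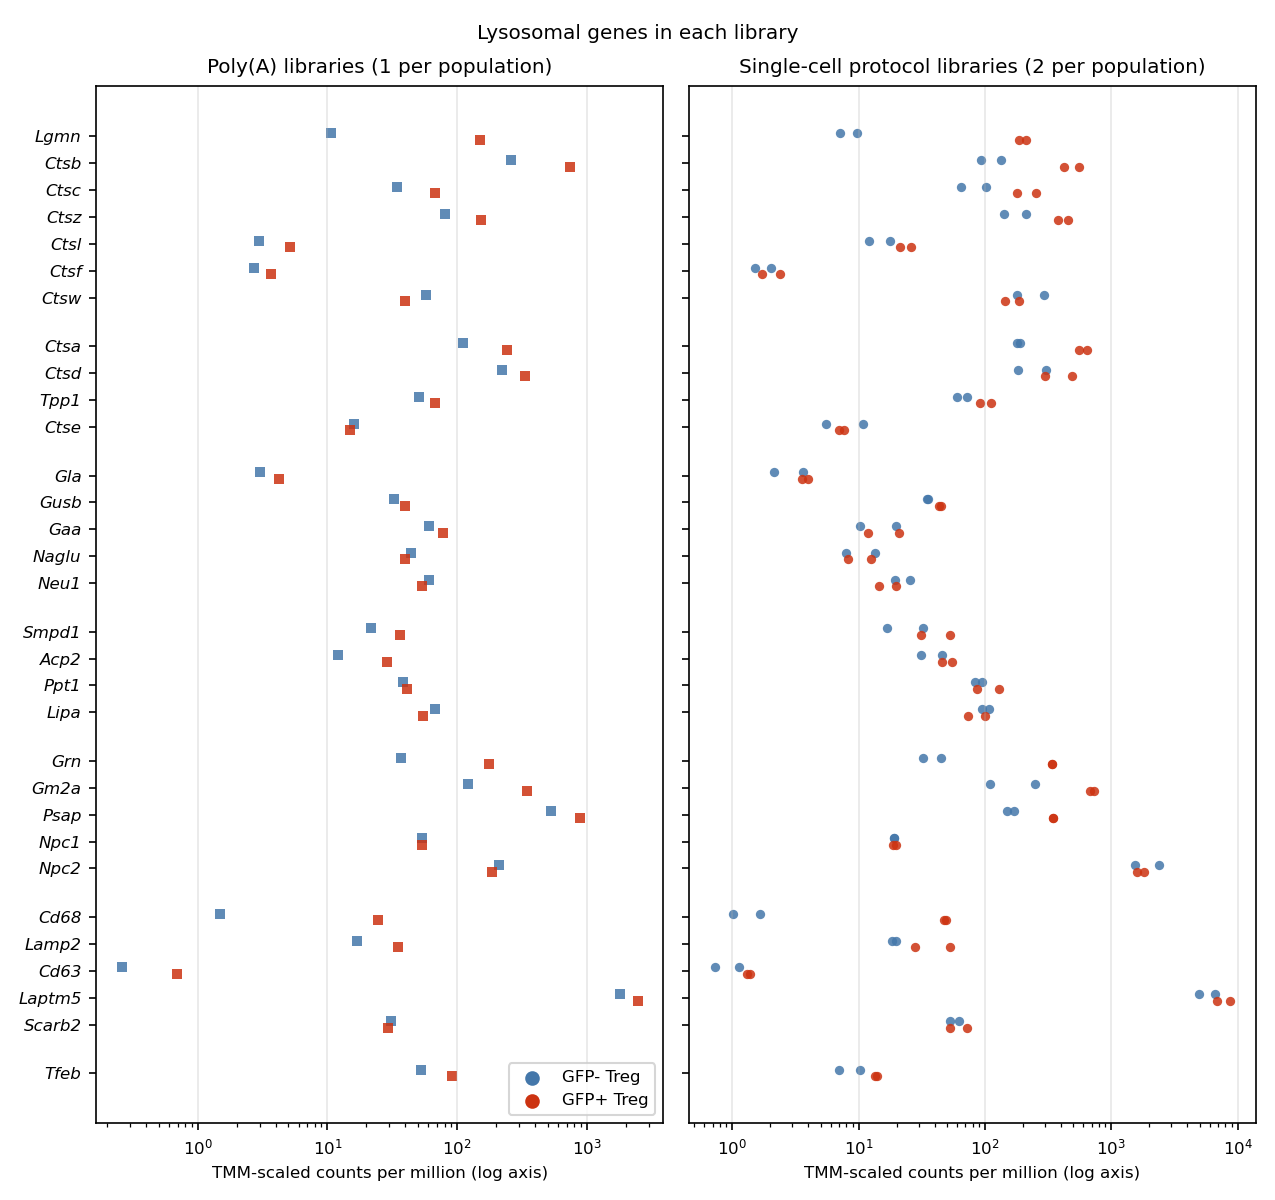
TMM-scaled CPM (log axis) of the 31 tested lysosomal genes, with 1 point for each library, the poly(A) libraries on the left and the single-cell protocol libraries on the right. For the 10 genes called higher each GFP+ point lies above each GFP- point of its protocol, as for Lgmn with 150.4 to 211 CPM against 7.17 to 10.6 CPM.

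Of the 4 peptidases of other classes, only Ctsa was called higher (25%, beside 9.81% of all tested genes), while Ctsd, Ctse and Tpp1 were not called. Cathepsin A (Ctsa, Entrez 19025) is a serine carboxypeptidase that also protects the sialidase Neu1 and beta-galactosidase in a complex. Ctsa had 111, 181 and 189 CPM in GFP- and 244, 642 and 553 CPM in GFP+ Treg. Every GFP+ library exceeded the GFP- libraries of its protocol, and the log2 fold change was 1.51 ± 0.26 (SE, 3 against 3 libraries, edgeR adjusted p = 0.00558). The aspartic protease cathepsin D (Ctsd) had between 184 and 493 CPM, and its log2 fold change of 0.66 ± 0.31 did not pass (edgeR adjusted p = 0.211). Tripeptidyl peptidase Tpp1 had 0.55 ± 0.22 and the aspartic protease cathepsin E (Ctse) -0.15 ± 0.28. The value for Ctse turned to 0.12 without GFP- 2.

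Of the 9 glycosidases, 5 could be tested and gave no call (0%, beside 9.81% of all tested genes called higher). With so few genes, 0 calls is not far from that share. The other 4 had poly(A) counts only and are given below. The 5 tested were acid alpha-glucosidase (Gaa), alpha-galactosidase (Gla), beta-glucuronidase (Gusb), alpha-N-acetylglucosaminidase (Naglu) and sialidase (Neu1). Their log2 fold changes lay between -0.32 (Neu1) and 0.41 (Gla), and 0 of 5 had an unadjusted p under 0.05. DESeq2, limma-voom and limma on the authors' log2 RPKM also called 0 of the 5. Gusb had the lowest standard error of all 31 members: 32.9, 35.4 and 34.9 CPM in GFP- and 39.6, 44.9 and 43.3 CPM in GFP+ Treg gave a log2 fold change of 0.31 ± 0.20 (SE, 3 against 3 libraries, edgeR adjusted p = 0.362). Neu1, whose partner Ctsa rose, had 61.0, 19.4 and 25.6 CPM in GFP- and 53.2, 14.4 and 19.9 CPM in GFP+ Treg. The 2 populations of Neu1 overlapped within the single-cell protocol.

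The 4 tested hydrolases of lipids and phosphate esters gave no call either (0%, beside 9.81% of all tested genes), again from few genes. Acid sphingomyelinase (Smpd1) had a log2 fold change of 0.77 ± 0.31 and lysosomal acid phosphatase (Acp2) one of 0.67 ± 0.27 (SE, 3 against 3 libraries). Both were under an unadjusted p of 0.05, with adjusted p of 0.153 and 0.156 (edgeR), and DESeq2, limma-voom and limma on the authors' log2 RPKM called 0 of the 4. Leaving out 1 library brought a call: Smpd1 had an adjusted p of 0.0250 without GFP- 5, and Acp2 one of 0.0383 without GFP- 2. Palmitoyl-protein thioesterase (Ppt1) stood at 0.22 ± 0.24, and acid lipase (Lipa), which frees cholesterol from its esters, at -0.25 ± 0.22.

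Among the activator, lipid transfer and granulin proteins, 3 of 5 genes (60%, beside 9.81% of all tested genes) rose: Grn, Gm2a and Psap. Progranulin (Grn, Entrez 14824) is secreted or taken to lysosomes and cut into granulins. Grn had 36.9, 32.2 and 45.2 CPM in GFP- and 175, 339 and 341 CPM in GFP+ Treg. The populations were far apart in both protocols, with a log2 fold change of 2.84 ± 0.30 (SE, 3 against 3 libraries, edgeR adjusted p = 0.00047).

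The GM2 activator (Gm2a, Entrez 14667) lifts the ganglioside GM2 from the membrane for beta-hexosaminidase A. Gm2a was at 121, 109 and 249.5 CPM in GFP- and at 348, 675 and 731 CPM in GFP+ Treg, without overlap within a protocol. The log2 fold change was 1.82 ± 0.35 (SE, 3 against 3 libraries, edgeR adjusted p = 0.00946). Prosaposin (Psap, Entrez 19156), the precursor of the saposins, which present sphingolipids to their hydrolases, had 531, 149 and 171 CPM in GFP- and 892, 346 and 348 CPM in GFP+ Treg.

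Within each protocol the GFP+ libraries of Psap were higher, and its log2 fold change of 0.99 ± 0.25 (SE, 3 against 3 libraries) had the highest adjusted p of the 10 calls, 0.0333 (edgeR). That of Psap became 0.223 without GFP- 20, 0.212 without GFP+ 19, 0.102 without GFP+ 1 and 0.146 without GFP+ 4, and 0.0581 with the RLE size factors of DESeq2 in place of TMM. The cholesterol exporters were not called. Npc2, which binds cholesterol in the lumen, had -0.21 ± 0.31, and Npc1, which carries it through the membrane, had 0.02 ± 0.20, or -0.02 with RLE size factors or DESeq2.

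Of the 5 tested membrane proteins, Cd68 and Lamp2 were called higher (40%, beside 9.81% of all tested genes). CD68 (Cd68, Entrez 12514) is a heavily glycosylated protein of late endosomes and lysosomes, best known as a macrophage marker. Cd68 was near the bottom of the 42 genes in GFP- Treg, with 1.48, 1.67 and 1.01 CPM from 68, 23 and 8 counts, and reached 24.5, 47.4 and 49.0 CPM in GFP+ Treg. It had the largest log2 fold change of the 31 tested members, 4.68 ± 0.33 (SE, 3 against 3 libraries, edgeR adjusted p = 7.49e-05).

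LAMP-2 (Lamp2, Entrez 16784) is a main protein of the lysosomal membrane and serves chaperone-mediated autophagy. Lamp2 had 16.9, 19.9 and 18.2 CPM in GFP- and 35.1, 27.9 and 52.6 CPM in GFP+ Treg, where the 2 single-cell libraries differed from each other more than GFP+ 1 differed from GFP- 2. The log2 fold change was 1.07 ± 0.27 (SE, 3 against 3 libraries, edgeR adjusted p = 0.0315). For Lamp2 the adjusted p was 0.174 without GFP- 20, 0.0535 without GFP- 2, 0.179 without GFP+ 19 and 0.152 without GFP+ 4.

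The tetraspanin Cd63 had at most 1.39 CPM in any library and a log2 fold change of 0.88 ± 0.41, the highest standard error of the 31 (edgeR adjusted p = 0.207). Scarb2, the receptor that carries beta-glucocerebrosidase to lysosomes, stood at 0.04 ± 0.22. Laptm5 encodes a lysosomal protein of blood cells that lowers antigen receptor levels. Laptm5 had 1796, 4910 and 6691 CPM in GFP- and 2466, 8762 and 6910 CPM in GFP+ Treg, with GFP+ 4 only slightly above GFP- 5. Its log2 fold change of 0.44 ± 0.35 did not pass (SE, 3 against 3 libraries, edgeR adjusted p = 0.477).

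Most of these genes already had a clear level in GFP- Treg. With a clear level set at 1 RPKM or more in every GFP- library with counts for the gene's protocol, 37 of the 42 had one, and 26 of 42 had 5 RPKM or more. Of the 27 tested genes with a clear level, 9 were called higher and 18 were not called. The 5 without were Ctsf, Gla, Cd63, Cd68 and Ctsk, of which Cd68 was called higher. The 10 called members ranged from 2.48 RPKM (Cd68) to 329 RPKM (Psap) in GFP- 20, and the 42 from 0.149 RPKM (Ctsk) to 1266 RPKM (Laptm5).

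By length-scaled level, Laptm5 came first in each of the 6 libraries, with 1266, 1732 and 1448 RPKM in GFP- Treg. In the poly(A) GFP- library it was followed by Psap at 329 RPKM, Ctsd at 192 RPKM and Ctss at 175 RPKM. Acp5 at 121 RPKM, Npc2 at 110.0 RPKM, Lamp1 at 106 RPKM and Gm2a at 102 RPKM came next, and with 1 library their order had no replicate check. In the single-cell GFP- libraries Npc2 held the second place with 439 and 417 RPKM, so the order below Laptm5 depended on the protocol. In GFP+ Treg Gm2a rose to the third place in all 3 libraries.

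**Figure D3:**
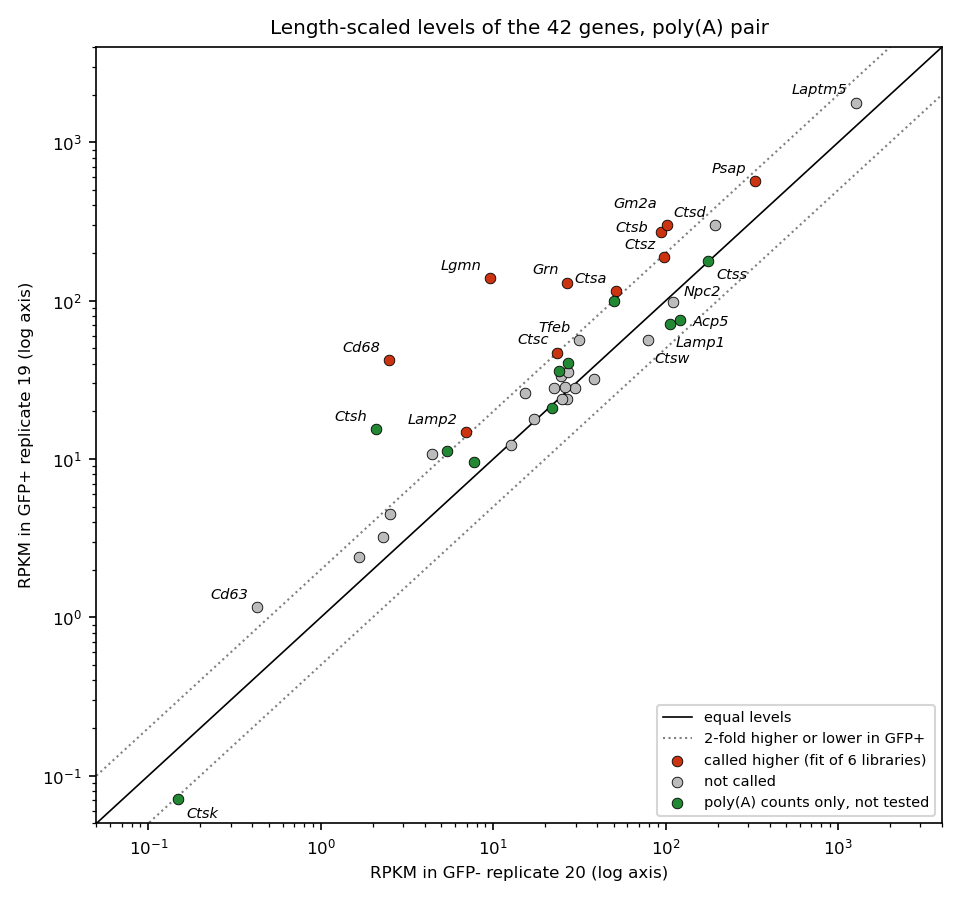
RPKM of the 42 genes in the poly(A) library of GFP+ Treg (replicate 19) against that of GFP- Treg (replicate 20), both on log axes; the solid line marks equal levels and the dotted lines a ratio of 2 either way. Cd68, Lgmn, Grn and Ctsh stand far above the line, Laptm5 at 1266 RPKM in GFP- lies near it, and Acp5 and Lamp1 lie below it.

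As a share of all counts, the 31 genes took 0.684%, 0.697% and 0.584% in GFP- and 1.13%, 1.06% and 1.02% in GFP+ Treg. The shares of the populations did not overlap. In summed CPM the ratio of GFP+ to GFP- was 1.61 in the poly(A) pair and 1.45 for the means of the single-cell libraries. Laptm5, which was not called, made up 27.3% of the net rise in the poly(A) pair and 46.6% in the single-cell libraries. Without Laptm5 the ratios were 1.79 and 1.59. In the poly(A) pair Ctsb gave 19.5% of the net rise, Psap 14.7% and Gm2a 9.25%, while Cd68, with the largest fold change, gave 0.937%.

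The protocols gave similar differences for these genes. Across the 31 genes the poly(A) and single-cell log2 ratios had a Pearson correlation of 0.96 and a Spearman correlation of 0.92, a description over genes that share the same libraries. Without Cd68, Lgmn and Grn the Pearson correlation over the other 28 was 0.87. The sign was the same for 30 of the 31, with Scarb2 as the exception. For all 10 called genes the ratio was larger in the single-cell protocol, for example 3.13 against 2.25 for Grn and 5.17 against 4.05 for Cd68 on the log2 scale. A test of the interaction of population and protocol called 0 of the 31 (0% of all tested genes, quasi-likelihood test of edgeR), with 0 of the 31 and 24 of all 10523 genes at an unadjusted p under 0.05. DESeq2 and limma were not run for the interaction. The interaction test had 2 residual degrees of freedom and 1 poly(A) library per population. For Grn its standard error was 0.73, against 0.30 in the main fit. Such a test has little power, so its 0 calls do not show that the differences were equal. Acp2, which was not called, had the larger ratio in the poly(A) pair, 1.24, and 0.38 in the single-cell libraries.

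A set of 11 members had counts in the poly(A) libraries only. All 11 lie on chromosomes 3, 8 and 9, where 2043 of the 2044 genes with at least 30 counts in the poly(A) pair were at 0 in all 4 single-cell libraries, against 52 of 11304 such genes on other chromosomes. Their 0 in those columns was therefore not read as lack of expression, and the poly(A) pair gave 1 library per population and no test. Of the 10 with at least 30 counts, 2 had a log2 ratio of 1 or more, a size seen in 11.3% of the 2248 genes with counts in the poly(A) pair alone. A ratio of -1 or less was seen in 0 of the 10 and in 5.96% of those genes. The median was 0.41 for the 10 and -0.10 for all such genes. Intervals below are 95% intervals for counting error only.

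Cathepsin H (Ctsh), an aminopeptidase, had 92 counts (2.00 CPM) in GFP- and 711 counts (14.5 CPM) in GFP+ Treg, a log2 ratio of 2.85 (2.54 to 3.18). Acid ceramidase (Asah1) had 7.17 and 14.6 CPM, a log2 ratio of 1.02 (0.83 to 1.21). Alpha-mannosidase (Man2b1) had 128 and 248 CPM, a log2 ratio of 0.96 (0.92 to 1.01), which was 1.43 in the authors' log2 RPKM and would then count as past the fold. These 3 were the highest of the set.

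The alpha subunit of beta-hexosaminidase (Hexa), the enzyme that Gm2a serves, had a log2 ratio of 0.55 (0.44 to 0.65). For beta-galactosidase (Glb1), a partner of Ctsa, it was 0.54 (0.45 to 0.63), from 37.8 and 54.9 CPM. Beta-mannosidase (Manba) followed at 0.27 (0.14 to 0.41). The intervals of these 6 genes lay above 0. Cathepsin S (Ctss), the protease that trims the invariant chain in antigen-presenting cells, had 140.2 CPM in GFP- and 140.0 CPM in GFP+ Treg, a log2 ratio of -0.00213 (-0.05 to 0.05). The calcium channel Mcoln1 had a log2 ratio of -0.10 (-0.22 to 0.02), and both of these intervals contained 0.

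Lower in GFP+ were Lamp1, a main protein of the lysosomal membrane, with 141 and 92.1 CPM, a log2 ratio of -0.61 (-0.67 to -0.56), and Acp5, the tartrate-resistant acid phosphatase, with 115 and 70.3 CPM, a log2 ratio of -0.72 (-0.78 to -0.65). Lamp1 and Lamp2 thus had opposite signs in the poly(A) pair, where Lamp2 had a log2 ratio of 1.05. In the authors' log2 RPKM Acp5 would count as past the fold in the lower direction, as Man2b1 would in the higher. Cathepsin K (Ctsk), the collagen-degrading cathepsin of osteoclasts, had 6 and 3 counts, too few to give a direction (log2 ratio interval -3.72 to 1.13).

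**Figure D4:**
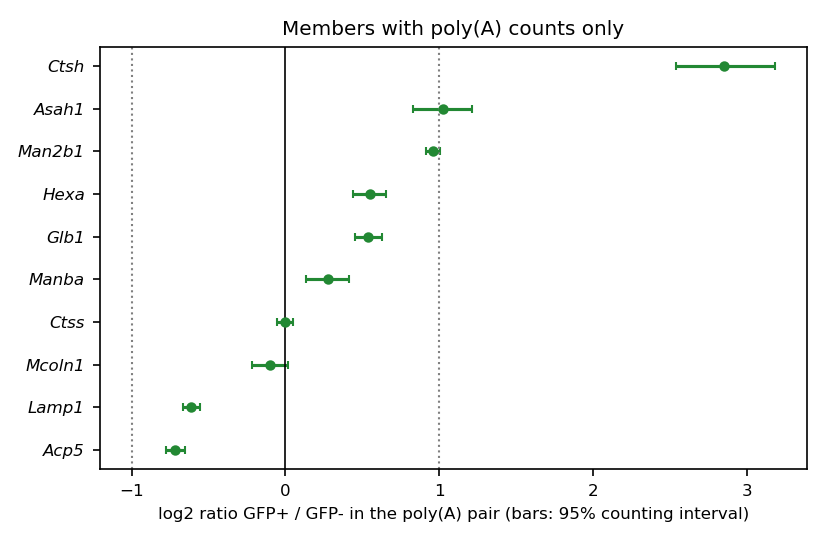
Log2 ratio of GFP+ to GFP- Treg in the poly(A) pair for the 10 lysosomal genes with poly(A) counts only and at least 30 counts (bars: 95% counting intervals, 1 library per population; dotted lines: log2 ratios of 1 and -1). Ctsh lies at 2.85, Asah1 and Man2b1 near 1, and Lamp1 and Acp5 at -0.61 and -0.72.

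TFEB, the master regulator of lysosomal genes, was itself measured. Tfeb (Entrez 21425) had 52.9, 7.03 and 10.3 CPM in GFP- and 91.4, 13.9 and 13.6 CPM in GFP+ Treg. Each GFP+ library lay above the GFP- libraries of its protocol, and the difference did not pass the test: the log2 fold change was 0.72 ± 0.23 (SE, 3 against 3 libraries, edgeR adjusted p = 0.0751). Without GFP- 5 the adjusted p of Tfeb was 0.0237, and over the 13 alternatives it lay between 0.0237 and 1.00.

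Since TFEB binds E-boxes, the promoters of the members were searched. RefSeq promoter windows (GRCm38.p6, 250 bases before to 50 after the start) matched 36 of the 42 genes, all but Ctsb, Ctse, Ctsh, Ctsw, Asah1 and Npc1. On either strand, the letters TCACGTG, which contain the general E-box CACGTG, were found in 9 of the 36 and in 4.29% of all 27025 genes with a window. CACGTG alone was found in 11 of 36 (30.6%) and 8.09% of all genes and TCACGTGA in 4 of 36 (11.1%) and 1.12%. The palindrome of 10 letters that extends TCACGTGA by 1 base on each side was found in 0 of 36 and 0.37% of all genes. The 9 members with TCACGTG were Ctsa and Lgmn among the 9 called higher with a window, Ctsd, Gaa, Gla and Naglu among the 18 not called, and Glb1, Lamp1 and Mcoln1 among the 9 with poly(A) counts only. It was thus present in 2 of 9 called and 4 of 18 uncalled members. A match is a string of letters and not a measured binding site.

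The windows around the motif are shown for a gene that rose, Lgmn, for Gaa, which was not called, and for Glb1 and Lamp1, whose poly(A) ratios had opposite signs. Lgmn is at chr12:102439116-102439162 on the minus strand, inside an intron of Lgmn in GENCODE M21. Gaa is at chr11:119267802-119267848, Glb1 at chr9:114401009-114401055 and Lamp1 at chr8:13159079-13159160, all on the plus strand with no annotated feature. Sequences run 5′ to 3′ on the gene's strand, with the motif or its reverse complement CACGTGA in capitals.
Lgmn: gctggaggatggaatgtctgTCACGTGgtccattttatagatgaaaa
Gaa: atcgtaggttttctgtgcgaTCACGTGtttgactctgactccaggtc
Glb1: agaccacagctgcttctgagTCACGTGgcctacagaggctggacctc
Lamp1: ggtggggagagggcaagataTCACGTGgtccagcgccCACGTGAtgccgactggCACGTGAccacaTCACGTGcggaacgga
The single copies ended 43 bases before the RefSeq start in Lgmn, 134 in Gaa and 42 in Glb1. The start used for Lgmn lies within the gene as GENCODE M21 annotates it, and which start served in Treg was not tested. Lamp1, which was lower in the GFP+ poly(A) library, had 4 copies between 9 and 55 bases before its start.

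Genes that serve the same organelle were read for comparison from 6 further lists. Genes of these lists with poly(A) counts only were not tested and are left out of the counts of calls and the medians. Of the proton pump, 1 of 15 tested subunits (6.67%) was called higher and 0 lower, with a median log2 fold change of 0.20. Over all tested genes, 9.81% were called higher and 3.68% lower, so the pump's share was not above that of all genes. Counts of the other lists are to be read beside the same shares. DESeq2, limma-voom and limma on the authors' log2 RPKM made the same counts for the pump. At an unadjusted p under 0.05 the pump had 2 higher and 0 lower, beside 15.3% and 11.5% of all tested genes. The 1 was Atp6v0d2, a subunit known from osteoclasts and macrophages, with 2.04, 3.91 and 2.28 CPM in GFP- and 8.71, 12.7 and 22.1 CPM in GFP+ Treg, a log2 fold change of 2.32 ± 0.33 (SE, 3 against 3 libraries, edgeR adjusted p = 0.00194).

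Of other lysosomal hydrolases 4 of 17 (23.5%) were called higher, with a median log2 fold change of 0.57. They were the carboxypeptidase Scpep1 at 2.23 ± 0.22, arylsulfatase B (Arsb) at 1.24 ± 0.22, the fucosidase Fuca2 at 1.13 ± 0.21 and heparanase (Hpse) at 2.06 ± 0.44 (SE, 3 against 3 libraries). DESeq2 called 5 of the 17, and Hpse passed the filter on low counts only with the GFP+ libraries. Without GFP- 20 the calls of Arsb (edgeR adjusted p = 0.0532), Fuca2 (0.107) and Hpse (0.114) were lost, and without GFP+ 19 likewise (0.0573, 0.112 and 0.126). Hpse was also lost without GFP+ 1 (0.0880). Scpep1 remained called in each case.

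Among other membrane proteins and transporters, 2 of 16 (12.5%) were called higher, or 3 by DESeq2, with a median of 0.18. The edgeR share was near the 9.81% of all tested genes. The peptide and histidine transporter Slc15a3 rose from 7.69, 1.81 and 4.68 CPM in GFP- to 80.4, 69.0 and 55.6 CPM in GFP+ Treg, a log2 fold change of 3.96 ± 0.39 (SE, 3 against 3 libraries, edgeR adjusted p = 0.000333). The amino acid exporter Slc36a1 had 0.99 ± 0.23, and its adjusted p went from 0.0210 to 0.178 without GFP- 20, 0.195 without GFP+ 19, 0.0682 without GFP+ 1 and 0.0878 without GFP+ 4 (edgeR).

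The mannose 6-phosphate receptors, which carry newly made enzymes to lysosomes, went in opposite directions. Igf2r, the larger receptor, which also clears enzymes and insulin-like growth factor 2 from outside, had 226, 66.4 and 82.0 CPM in GFP- and 91.3, 13.3 and 24.3 CPM in GFP+ Treg. Its log2 fold change of -1.75 ± 0.30 (SE, 3 against 3 libraries, edgeR adjusted p = 0.00549) held with any 1 library left out. M6pr, the smaller receptor, had 108, 277 and 315 CPM in GFP- and 185, 635 and 655 CPM in GFP+ Treg, a log2 fold change of 1.00 ± 0.25 (edgeR adjusted p = 0.0299). The call of M6pr was lost without GFP- 20 (0.224), GFP+ 19 (0.225), GFP+ 1 (0.0868) or GFP+ 4 (0.127). These were the only calls among the 8 tested genes of enzyme sorting, whose median log2 fold change was -0.06. Sort1, the 1 gene of this list with poly(A) counts only, had 1.02 CPM in GFP- 20 and 13.7 CPM in GFP+ 19. Its log2 ratio was 3.74 (3.31 to 4.20), from 1 library per population.

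Of the cathepsin inhibitors 2 of 6 (33.3%) were called higher, with a median of 0.92. Serpinb1a, an inhibitor of granule serine proteases, had 1.41 ± 0.23 (SE, 3 against 3 libraries). Serpinb6a, which acts on cathepsin G and related proteases, had 1.23 ± 0.26. Cystatin C (Cst3), an inhibitor of cysteine cathepsins, had a log2 fold change of 1.42 and was not called (edgeR adjusted p = 0.0602), with every GFP+ library above the GFP- libraries of its protocol. DESeq2 called 3 inhibitors higher and 1 lower, and limma on the authors' log2 RPKM 3 higher and 0 lower. Serpinb1a lost its call without GFP- 20 (edgeR adjusted p = 0.0544) and GFP+ 19 (0.0559), Serpinb6a without these (0.0679 and 0.0665) and without GFP+ 1 (0.0533).

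Among relatives of Tfeb and the nutrient sensing genes, 1 of 10 (10%) was called higher, near the 9.81% of all tested genes, with a median of -0.06. It was Tfec, a member of the same family that is known from macrophages, with 0, 0.0725 and 0 CPM in GFP- and 0.936, 1.47 and 1.45 CPM in GFP+ Treg. Tfec passed the filter on low counts only through the GFP+ libraries, so its call is a description. Limma on the authors' log2 RPKM called 2 of the 10 higher. Tfe3, the closest relative of Tfeb, had 0.57 ± 0.20 and was not called (edgeR adjusted p = 0.106).

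**Figure D5:**
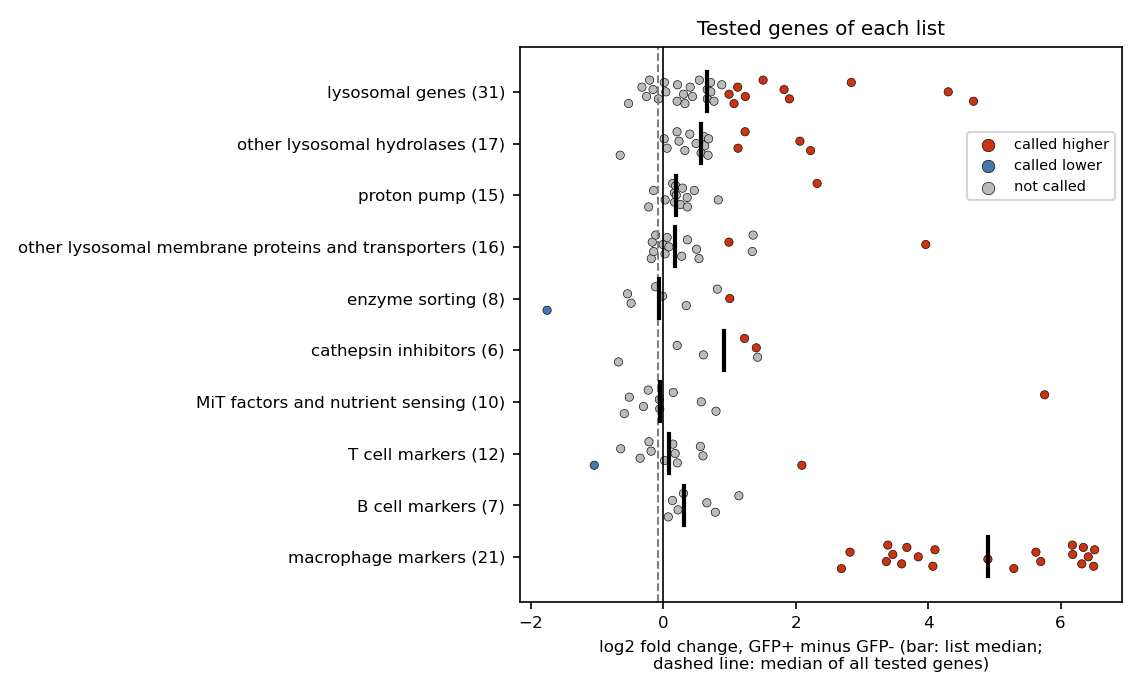
Log2 fold change (GFP+ minus GFP-) of every tested gene of the lysosomal set, of 6 related lists and of 3 marker lists, with the number tested in brackets, a bar at each list's median and a dashed line at the median of all tested genes. The lysosomal genes have a median of 0.66, the T cell markers one of 0.08 and the macrophage markers one of 4.90.

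Markers of other cell types were read in the same way. Their edgeR calls stand beside 9.81% higher and 3.68% lower among all tested genes. At an unadjusted p under 0.05 (edgeR) these shares were 15.3% and 11.5%. Median log2 fold changes were 1.72 for 4 erythroid, 1.59 for 4 plasma cell, 0.10 for 3 natural killer cell and -0.62 for 2 CD8 T cell markers. The 2 tested dendritic cell markers went in opposite directions, Itgax at 3.78 and Siglech at -0.76, so their median of 1.51 describes neither. The 7 tested B cell markers had a median log2 fold change of 0.31, with 0 called by edgeR, limma-voom and limma on the authors' log2 RPKM, 1 by DESeq2 and 3 higher at an unadjusted p under 0.05. Single genes were called for plasma cells (Sdc1 higher), dendritic cells (Itgax higher), natural killer cells (Gzma higher, Ncr1 lower) and CD8 T cells (Cd8a lower). Of these, Sdc1, Itgax and Gzma passed the filter on low counts only with the GFP+ libraries. Of the erythroid markers Hba-a1 and Hba-a2 were called higher. The 4 summed to 34.0, 162 and 593 CPM in GFP- and to 96.6, 1044 and 1808 CPM in GFP+ Treg, higher within each protocol. The single tested neutrophil marker had a log2 fold change of 1.32 and was not called by edgeR. The part of these cells in the lysosomal differences was not tested.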

How the data were processed

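Each protocol has 1 deposited table of unnormalised counts per Entrez gene. The authors' log2 RPKM, deposited for each library, served as an alternative. Within the poly(A) pair their ratios differed from the count ratios by amounts that varied between genes. They thus hold a further adjustment besides gene length and library size, which was not identified. The submitters' processing notes name Subread, featureCounts, edgeR and mm9, with no versions. Whether counting used strand is not stated, so reads of overlapping or antisense genes may be shared. The single-cell table lists 30.9% of genes at a length of exactly 3000 bases, which affects RPKM there. Counts of genes that filterByExpr kept (10523) were scaled by TMM and fitted with the quasi-likelihood test of edgeR 4.0.16 (R 4.3.3), with protocol as covariate, 3 residual degrees of freedom and Benjamini-Hochberg adjustment over all tested genes at 0.05. RPKM for levels were computed from the counts, the tables' lengths and library totals. Alternatives used DESeq2 1.42.0 and limma 3.58.1. On simulated data the fit recovered 23% of genes changed by a log2 of 1 and 94% of those changed by 2, and 7.87% of its calls were unchanged genes.

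The members and lists were chosen with earlier results of these data known. All 42 members are named. Full values were set to go to up to 15 called members with the largest change, lower calls and Tfeb, pair values to members with poly(A) counts only, and from each pathway list up to 3 called genes per direction. Hpse, Tfe3, Cst3, Sort1, the values of some uncalled members (Gusb, Neu1, Ctsw and Laptm5) and the marker genes were named after their values were seen. The RefSeq promoter table and GENCODE M21 (GRCm38) served only for sequences and chromosomes, since the counts used mm9. No column came from outside the 6 samples. The result of 1 T cell marker is not reported here.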

Additional observations from a re-analysis of the deposited data

How the results depend on the processing

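The number of lysosomal genes called higher was 9 with RLE size factors (9.30% of all genes) and 11 without a filter on low counts (7.93%). It was 10 with DESeq2 (11.4%), limma-voom (10.2%) and limma on the authors' log2 RPKM (8.76%). It was 2 without the protocol covariate, where the spread between protocols counts as error and 1.09% of all genes were called higher, 6 with the single-cell libraries alone (5.34% of all genes), and between 6 and 13 with 1 library left out. The number called lower was 0 in all 13 alternatives. Of 403 gene values under alternatives, 357 kept direction and side of the threshold, 29 lost the call, 5 gained one and 12 reversed, none of these in a called gene. Cd68 and Lgmn were called in all 13, and Ctsb, Ctsa, Gm2a and Grn in all but the fit without the covariate.

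The log2 fold changes that reversed were near 0. Npc1 had -0.018 with RLE size factors and -0.017 with DESeq2, and with 1 library left out it ranged from -0.00842 (without GFP+ 4, and -0.00759 without GFP- 2) to 0.039. Scarb2 had -0.030 with the authors' log2 RPKM and ranged from -0.11 (without GFP+ 1, and -0.04 without GFP- 5) to 0.14. Ctse ranged from -0.35 to 0.12 (without GFP- 2). Gaa ranged from -0.020 (without GFP+ 4, and -0.01 without GFP- 2) to 0.52, and Naglu from -0.29 to 0.14 (without GFP- 5, and 0.07 without GFP+ 1). The cause was not tested.

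In the authors' log2 RPKM the poly(A) pair gave 3.36 for Ctsh and -1.14 for Acp5, which would then count as past the fold in the lower direction. No paired analysis was made because the labels name no pairs. Replicate numbers of GFP+ and GFP- samples are neighbours within each protocol, and whether such samples were sorted together is not stated. The fit would not account for such a pairing. The poly(A)-only genes have 1 library per population, so their intervals cover counting error only, and Cd63, Ctsf and Cd68 in GFP- Treg rest on few counts.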
